A study of Macaca fascicularis with 44 samples.

Results

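Betamethasone is a synthetic glucocorticoid. It crosses the cell membrane and binds the glucocorticoid receptor, which moves to the nucleus, binds DNA and raises or lowers transcription of its target genes. The anterior cingulate cortex (ACC) is a medial frontal area known for its part in emotional control and in regulating the response to stress.

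The response of this cortical area to betamethasone was measured by RNA-seq in 12 of the 44 libraries of the study, chosen by tissue label. There were 6 libraries from betamethasone-exposed and 6 from saline-exposed female cynomolgus macaques. Replicate numbers used here follow the order of the samples within each group and are not in the labels. The remaining 32 libraries came from basolateral amygdala (BLA), posterior dentate gyrus (pDG) and anterior dentate gyrus (aDG), and are used only for comparison with ACC. Betamethasone dose, schedule and route, and the animals' age, were not given in any source used here. Whether the libraries of a group came from different animals is not stated in the labels; the p-values reflect spread among libraries, and that spread may be technical in part.

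The ACC libraries held 34291008 to 62098327 gene reads with betamethasone and 30955135 to 48658744 with saline. Their labelled region was checked by similarity of expression. For 12 of 12 the closest of all 44 libraries was another ACC library, and the lowest correlation within ACC (r = 0.967) lay just above the highest with any library of another region (r = 0.966). The tables give Ensembl-style gene identifiers without names, and 0 of 17293 matched the RefSeq gene table used here. Marker genes of cell types and known glucocorticoid targets therefore could not be looked up, and genes are given by identifier. In bulk tissue, fewer cells of a type and less RNA per cell cannot be told apart.

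A small set of identifiers differed with betamethasone in ACC. Of 14543 identifiers tested with edgeR's quasi-likelihood test, 48 (0.330%) passed an adjusted p of 0.05. There were 30 higher with betamethasone (0.206%) and 18 lower (0.124%). Neither the number nor this balance was stable: there were 4 higher and 10 lower with the percentage of reads outside genes as a covariate, 7 and 14 with that of unmapped reads, and 20 and 19 with upper-quartile factors. Leaving out 1 library gave 3 to 206 calls, and DESeq2 gave 557. At an unadjusted p under 0.05 there were 2329 (16.0%). The median log2 change over all tested identifiers was -0.00. Among those called higher the median change was 0.66 on the log2 scale, a 1.58-fold difference, with a range of 0.30 to 3.81. Among those called lower it was -0.92, a 1.89-fold difference, with a range of -1.66 to -0.40.

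Large changes were few in either direction. Of the 30 identifiers called higher, 5 differed at least 2-fold and 12 by less than 1.5-fold. Of the 18 called lower, 8 differed at least 2-fold and 3 by less than 1.5-fold. Over all tested identifiers 119 had a fitted change of at least 2-fold, so most changes of that size did not pass the test.

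The identifiers that rose were on the whole more abundant than those that fell. Levels are in read counts per 1000000 gene reads (CPM), which are not corrected for gene length. The median level over the 12 libraries was 63.3 CPM for identifiers called higher (0.465 to 620.8 CPM) and 19.6 CPM for those called lower (2.76 to 130.7 CPM), against 24.3 CPM over all identifiers tested. Among the 2532 identifiers above 100 CPM, 9 were called higher and 1 lower, with a median log2 change of 0.65 in those called higher. Between 10 and 100 CPM, 15 of 7429 were called higher and 9 lower, with median changes of 0.48 and -0.59. Calls at the lower levels had larger changes, but small changes pass the test less readily at low counts. The smallest change called higher was 0.71 between 1 and 10 CPM and 0.30 between 10 and 100 CPM. The smallest called lower was -0.91 and -0.40 in the same order. Between 1 and 10 CPM, 5 of 3409 were called higher and 8 lower, with median changes of 1.98 and -1.25, and the 1173 identifiers below 1 CPM held 1 more higher call.

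**Figure D1:**
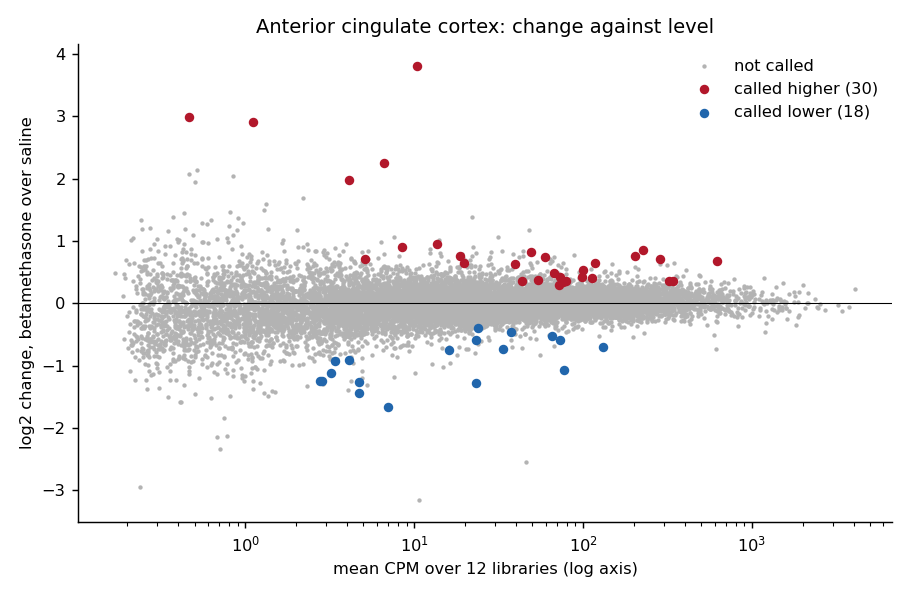
Log2 change in ACC (betamethasone over saline, vertical axis) against mean level over the 12 libraries (CPM, log axis), 1 point per identifier tested. The 30 identifiers called higher (red) reach 3.81 on the log2 scale, and the 18 called lower (blue) reach -1.66; the lone blue point above 100 CPM stands against 9 red ones.

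A tilt with level also ran through all tested identifiers, called ones included. The share with a positive change was 38.4% below 1 CPM, 41.6% between 1 and 10 CPM, 50.9% between 10 and 100 CPM and 57.9% above 100 CPM. The matching median log2 changes were -0.13, -0.05, 0.00 and 0.03. With the percentage of unmapped reads of each library as a covariate, the shares in the same order were 41.4%, 46.5%, 51.4% and 51.0%, so the rise ended at 10 CPM. With the percentage of reads outside genes as a covariate they were 38.9%, 44.1%, 53.7% and 55.9%. The shares also depended on scaling, at 36.3%, 38.2%, 44.6% and 51.1% with upper-quartile factors. The part of RNA quality in the tilt was not tested.

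The leading identifier by p was ENSMFAG00000003719, an abundant transcript and the most abundant of those called. It stood at 734.7, 750.3 and 798.8 CPM with betamethasone and at 432.7, 469.6 and 547.6 CPM with saline (lowest, median and highest of 6). The lowest betamethasone library lay well above the highest saline library, and the betamethasone libraries were close together. The means were 760.04 ± 28.0 CPM with betamethasone and 481.5 ± 46.2 CPM with saline (SD, n = 6 each). The log2 change was 0.68 ± 0.07 (SE), 1.60-fold, with an edgeR adjusted p of 0.000873. It passed with each library left out (log2 change 0.65 to 0.72) and with either read-quality covariate (edgeR adjusted p = 0.0121 for reads outside genes and 0.0236 for unmapped reads).

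ENSMFAG00000045861 had the largest rise. With betamethasone it stood at 12.3, 15.4 and 32.3 CPM, and with saline at 0.0220, 1.26 and 3.04 CPM (lowest, median and highest of 6). Saline libraries held 1 (replicate 5) to 144 reads of it (replicate 4), and all of them lay below the lowest betamethasone library. Betamethasone replicates 4 and 5 stood above the other betamethasone libraries, at 27.3 and 32.3 CPM against 16.4 CPM or less. The means were 19.4 ± 8.25 CPM with betamethasone and 1.41 ± 1.24 CPM with saline (SD, n = 6 each). The log2 change of 3.81 ± 0.59 (SE), or 14.1-fold, had an edgeR adjusted p of 0.0201. Without saline replicate 2 the change was 3.62 and no longer passed (edgeR adjusted p = 0.0572), nor did it with reads outside genes (3.72, 0.0713) or unmapped reads (3.25, 0.136) as a covariate.

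In the other direction, ENSMFAG00000045090 had the lowest p and was the only identifier above 100 CPM that was called lower. It stood at 90.3, 95.2 and 111.3 CPM with betamethasone and at 133.6, 160.4 and 191.6 CPM with saline (lowest, median and highest of 6). All betamethasone libraries lay below all saline libraries, and the gap between the groups was about as wide as the range within the betamethasone group. The means were 98.7 ± 9.43 CPM with betamethasone and 162.6 ± 20.6 CPM with saline (SD, n = 6 each). The log2 change was -0.69 ± 0.09 (SE), a 1.62-fold difference, with an edgeR adjusted p of 0.00878, and it passed with each library left out and with either covariate.

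The steepest fall was that of ENSMFAG00000036771. It stood at 1.01, 3.62 and 4.35 CPM with betamethasone and at 6.25, 11.1 and 13.6 CPM with saline (lowest, median and highest of 6). The groups did not overlap, and betamethasone replicate 4 (1.01 CPM) and saline replicate 4 (6.25 CPM) stood below the rest of their groups. The means were 3.32 ± 1.24 CPM with betamethasone and 10.7 ± 2.41 CPM with saline (SD, n = 6 each). The log2 change was -1.66 ± 0.27 (SE), a 3.16-fold difference, with an edgeR adjusted p of 0.0201. The change no longer passed without betamethasone replicate 6 (-1.65, edgeR adjusted p = 0.0532) or saline replicate 2 (-1.65, 0.0661). It also missed the threshold with saline replicates 3 and 5 left out (-1.56, edgeR adjusted p = 0.0609). The same held with reads outside genes (-1.48, 0.0867) or unmapped reads (-1.53, 0.104) as a covariate.

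**Figure D2:**
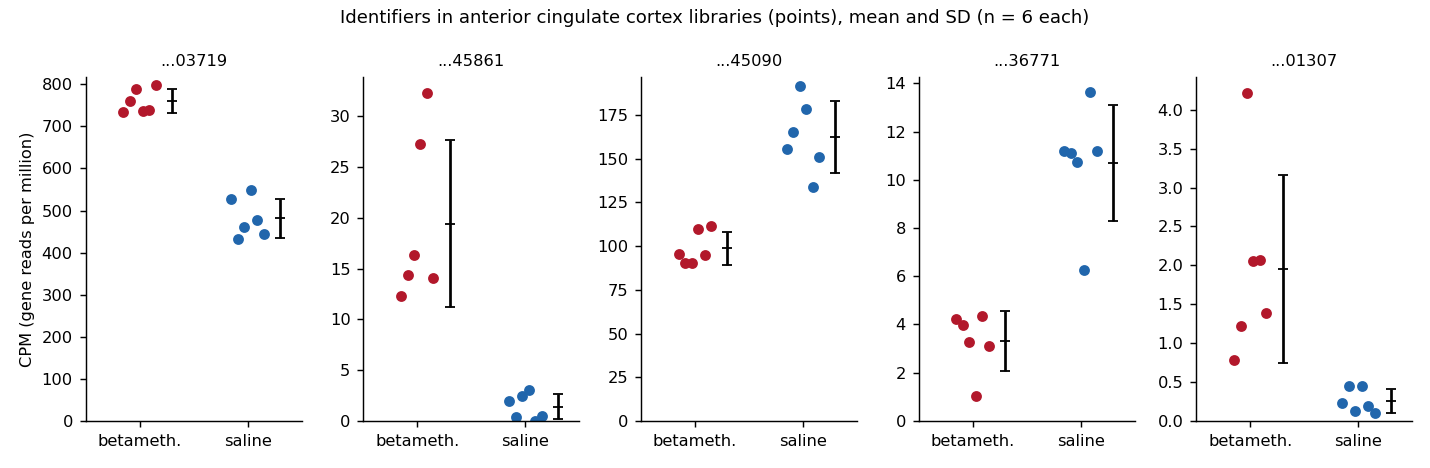
Level of 5 identifiers in ACC (CPM, linear axes from 0), with betamethasone (red) left of saline (blue) and 1 point per library; titles give the last 5 digits of the identifier, and bars show mean and SD (n = 6 each). In none of the 5 panels do the groups overlap, and the highest betamethasone library of ENSMFAG00000001307 stands apart at 4.21 CPM.

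Together the called identifiers took a small part of each library. Those called higher summed to 3468.7 to 3856 CPM in betamethasone libraries and to 2336 to 2770 CPM in saline libraries, or 0.347% to 0.386% against 0.234% to 0.277% of gene reads. Those called lower summed to 354.9 to 456.9 CPM in betamethasone libraries and to 621.6 to 733.2 CPM in saline libraries. Since these identifiers were chosen on this difference, the sums describe its size only.

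The separation was complete for most calls. Of the 30 identifiers called higher, 27 had every betamethasone library above every saline library, where 117 (0.805%) of all tested identifiers did. Of the 18 called lower, 16 had every betamethasone library below every saline library, where 111 (0.763%) did. Calling used the same values, so nothing is read from these shares. Particular libraries stood closest to the other group more often than others. Betamethasone replicate 4 was the betamethasone library nearest to saline for 17 of the 48 identifiers, 15 of them called higher, and saline replicate 4 was the saline library nearest to betamethasone for 18.

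For most identifiers the spread within groups was smaller with betamethasone. Over all tested identifiers, 75.4% had a smaller SD of log2 CPM with betamethasone than with saline, and the median SD was 0.162 with betamethasone and 0.233 with saline. Among identifiers called higher 19 of 30 did (63.3%), and among those called lower 5 of 18 (27.8%). Calling used the same spread, so nothing is read from the shares among called identifiers. The distance of each library was taken as its root mean square difference from the average of the other libraries of its group. It averaged 0.338 ± 0.0155 log2 CPM with betamethasone and 0.410 ± 0.0721 with saline (SD, n = 6 each). That difference did not pass after adjustment (exact permutation test, two-sided p = 0.0281, adjusted over 10 library measures 0.0938). Saline replicates 3 (0.430), 5 (0.456) and 6 (0.521) were the farthest from their group. Saline replicates 1, 2 and 4 lay at 0.327 to 0.368, where betamethasone libraries lay at 0.320 to 0.363.

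Treatment separated the libraries on the second principal component, which carried 18.3% of the variance. Betamethasone libraries lay at 5.57 to 19.9 on it and saline libraries at -37.5 to 4.72, a mean difference of 27.1 (exact permutation test, two-sided p = 0.00216, the smallest that 6 against 6 allow, adjusted 0.0216). Saline replicate 1 (4.72) lay beside the betamethasone libraries, whereas saline replicates 3 (-37.5) and 5 (-31.2) lay far from all others. The first component (21.4% of the variance) did not separate the groups (exact permutation p = 0.706). With the 500 most variable identifiers in place of all of them, the first component separated the groups and the second did not (exact permutation p = 0.00216 and 0.485).

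The percentages of unmapped reads and of mapped reads outside genes were lower on average in betamethasone libraries, at p-values that did not pass after adjustment. Unmapped reads were 12.1% ± 0.491 of all reads with betamethasone and 13.8% ± 1.80 with saline (SD, n = 6 each; exact permutation test, two-sided p = 0.0173, adjusted over 10 measures 0.0866). Mapped reads outside annotated genes were 28.5% ± 1.55 in betamethasone libraries and 31.4% ± 3.31 in saline libraries (exact permutation p = 0.0823, and 0.206 after adjustment). The saline libraries at the far end of the second component were the ones with the highest values: replicate 3 had 14.8% unmapped and 36.3% outside genes, and replicate 5 had 16.9% and 34.6%. Saline replicate 1, beside the betamethasone libraries, had 12.2% and 28.0%. The share of reads on the opposite strand, the share in the 100 most abundant identifiers, ambiguous reads, the number of identifiers with at least 10 reads and depth had adjusted exact permutation p-values of 0.296 or more.

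**Figure D3:**
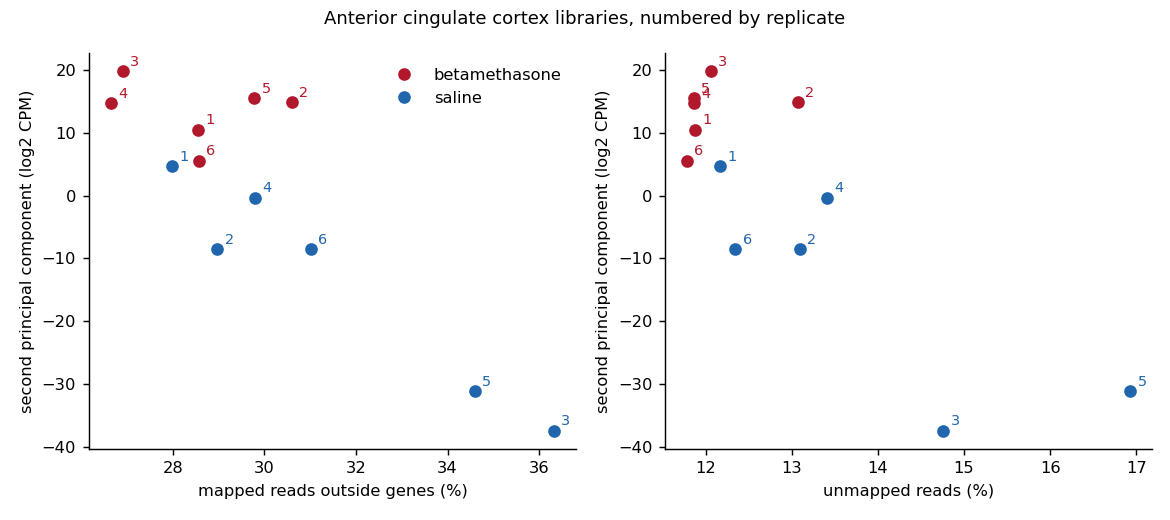
Second principal component of log2 CPM (vertical axis) against the percentage of mapped reads outside genes (left) and of unmapped reads (right), 1 point per ACC library, numbered by replicate; betamethasone in red, saline in blue. Saline replicates 3 and 5 combine the lowest component values, -37.5 and -31.2, with the highest percentages outside genes, 36.3 and 34.6.

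Taking these measures into the fit altered the number of calls more than the sizes of the changes. With the percentage of reads outside genes as a covariate 14 identifiers passed, 4 higher and 10 lower, of which 9 were among the 48. With unmapped reads as a covariate 21 passed, 7 higher and 14 lower, of which 13 were among the 48. The majority of higher calls (62.5% of 48) thus became a minority, at 28.6% and 33.3%. All 48 kept their direction in both fits, but these fits use the same libraries that chose the 48. The identifiers called higher retained a median of 93.9% of their log2 change with the first covariate and 86.7% with the second, and those called lower 109.5% and 111.1%. Leaving out saline replicates 3 and 5 together, an alternative chosen after seeing the data, gave 17 higher and 27 lower calls, 23 of them among the 48, with the same direction in all 48.

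The count also rested on single libraries. Without saline replicate 2 only 3 identifiers passed, 2 higher and 1 lower, and without betamethasone replicate 1 there were 11. Without saline replicate 1, which lay nearest to the betamethasone libraries on the second component, 206 passed, 143 higher and 63 lower, the 48 among them. Leaving out any other library gave between 17 (without betamethasone replicate 5) and 72 calls (without saline replicate 6). Betamethasone replicates 3 and 4 carry adjacent title numbers. Deviations of libraries from their own group mean tend to correlate negatively by construction, so r is read against the other pairs. For betamethasone replicates 3 and 4 the correlation was the highest of the betamethasone pairs (r = 0.0099, where the other pairs had -0.38 to -0.07). Among all 30 within-group pairs it ranked 3, below saline replicates 3 and 5 (r = 0.062) and 1 and 4 (r = 0.052), whose title numbers are not adjacent. Whether betamethasone replicates 3 and 4 came from the same animal, which would leave 5 animals in the group, was not tested. With their reads summed as 1 library 34 identifiers passed, all among the 48. Across every ACC fit in which they were tested, the 48 kept their direction. Those fits reuse the libraries that chose the 48, and most of the 48 had groups that did not overlap. A kept direction was therefore close to given, and nothing is read from it. DESeq2 called 359 higher and 198 lower, and limma voom 58 in all, both including all 48.

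**Figure D4:**
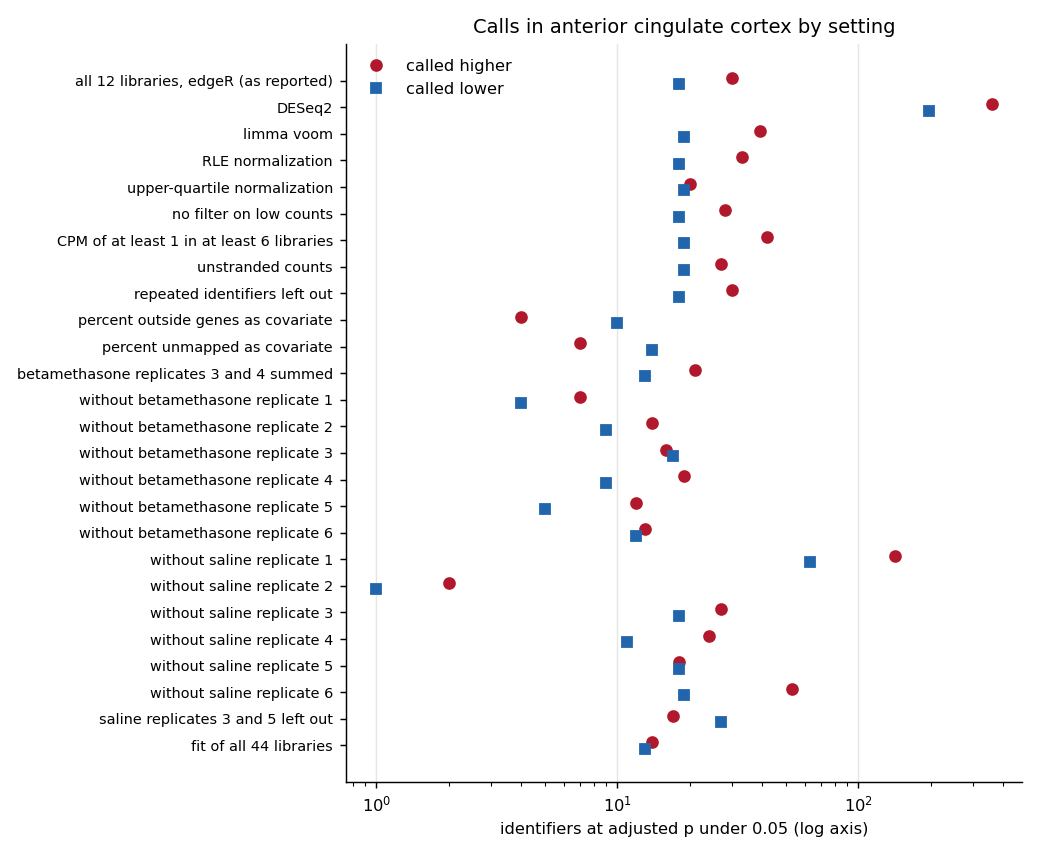
Number of identifiers called in ACC at an adjusted p under 0.05 (log axis), higher (red circles) and lower (blue squares) with betamethasone, under each setting named at the left. Counts run from 2 higher and 1 lower without saline replicate 2 to 359 higher and 198 lower with DESeq2; lower calls outnumber higher ones with either covariate, without betamethasone replicate 3 and with saline replicates 3 and 5 left out.

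The identifiers called in ACC were then followed in the other regions, whose libraries did not enter their choice. The labels do not say whether those libraries came from the same animals as the ACC libraries, so the regions may not be independent. Those called lower were mostly lower elsewhere too. In aDG 15 of 18 were lower with betamethasone (48.6% of all tested), with a median log2 change of -0.51, and 5 reached an unadjusted p under 0.05, where 2.43% of all tested did. In pDG 17 of 18 were lower (45.6% of all tested), the median was -0.44, and 9 reached that p, where 3.98% did. In BLA 16 of 18 were lower (50.9% of all tested), the median was -0.72, and 12 reached it, where 5.49% did. The median of these 18 in ACC was -0.92, so the changes elsewhere were smaller on the whole, though these identifiers had been chosen for their change in ACC.

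The identifiers called higher had smaller median log2 changes outside the cortex than in ACC (0.65 over those tested), where they had been chosen for their change. Most were higher in each of the other regions too. In aDG 20 of 28 tested were higher (51.4% of all tested), with a median log2 change of 0.16, and 5 were at an unadjusted p under 0.05 in that direction, where 1.22% of all tested were. In pDG 24 of 28 were higher (54.4% of all tested), with a median of 0.24, and 9 reached that p, where 4.75% did. In BLA 24 of 29 were higher (49.1% of all tested), with a median of 0.27, and 11 reached it, where 4.76% did. In each region 1 of them was lower at that p.

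The library numbered here as aDG saline replicate 5 correlated better with the BLA libraries (mean r = 0.975) than with those of its own region label (0.959, where other aDG libraries had 0.975 to 0.983). BLA saline replicate 5 stood apart from its region (mean r = 0.934, where other BLA libraries had 0.968 to 0.981). Without these libraries, 21 of 28 identifiers called higher in ACC were higher in aDG (median 0.13) and 27 of 29 in BLA (median 0.30). Of those called lower, 15 of 18 were then lower in aDG (median -0.58) and 17 of 18 in BLA (median -0.72). The direction of a median changed in no region.

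**Figure D5:**
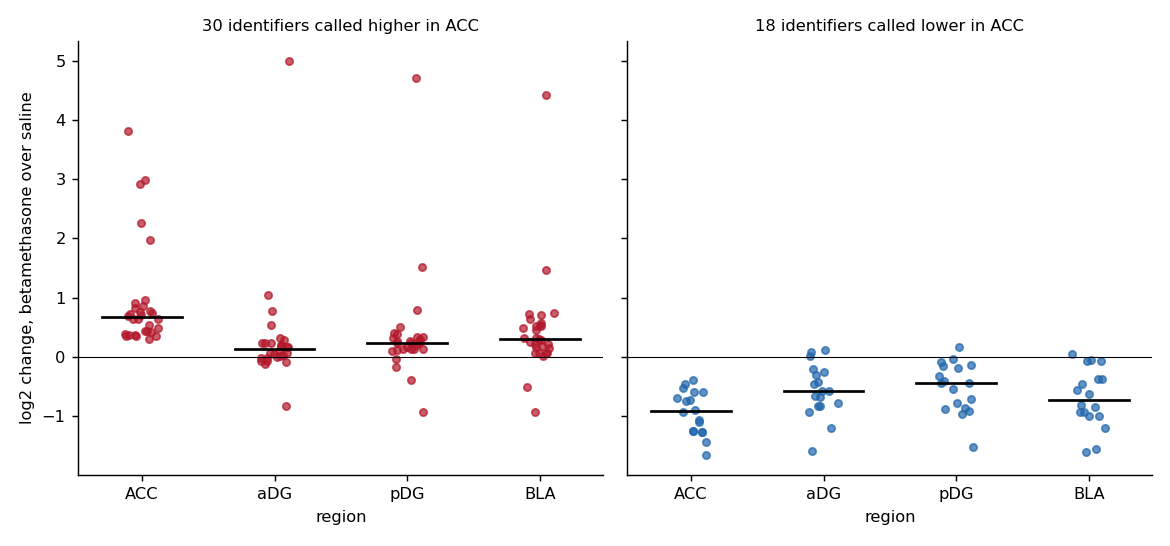
Log2 change (betamethasone over saline) of the identifiers called higher (left, red) and lower (right, blue) in ACC, shown for ACC and for aDG, pDG and BLA; points are identifiers, lines are medians, and saline replicate 5 is left out in aDG and BLA. The medians of the left panel are 0.13, 0.24 and 0.30 outside ACC, and those of the right panel -0.58, -0.44 and -0.72; the ACC values themselves were used to choose the identifiers.

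The named identifiers fell into separate patterns across regions. ENSMFAG00000045861 had log2 changes of 5.21 in aDG, 4.71 in pDG and 4.69 in BLA, and ENSMFAG00000036771 of -1.60, -1.53 and -1.35. For these identifiers the ACC change minus the mean of the other regions was -1.03 ± 0.74 and -0.16 ± 0.35 on the log2 scale (SE; edgeR interaction adjusted p = 0.9996 for both). ENSMFAG00000003719 had changes of 0.02, 0.13 and 0.34 in aDG, pDG and BLA, and its ACC change exceeded their mean by 0.54 ± 0.12 (SE), which did not pass (edgeR adjusted p = 0.149). Without saline replicate 5 of aDG and of BLA that difference passed (0.54, edgeR adjusted p = 0.0317), and DESeq2 called it with all libraries (adjusted p = 0.0199).

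Whether a change in ACC differed from that elsewhere was tested across all identifiers over all 44 libraries together. That fit takes the regions as independent, although the labels do not say that their libraries came from different animals. Against the mean of the other regions 2 of 15257 identifiers passed (0.0131%), and against aDG 1 passed (0.00655%). Against pDG 0 passed (0%), with 412 of 15257 at an unadjusted p under 0.05 in edgeR and 0 calls by DESeq2. Against BLA 0 passed in edgeR (0%), with 778 of 15257 at an unadjusted p under 0.05 and 3 calls by DESeq2. An unadjusted threshold of 0.05 passes about that share of identifiers when nothing differs, so nothing is read from the 412 and 778. Most identifiers called in ACC are thus not shown to respond differently there.

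ENSMFAG00000045090 was the identifier that passed against both. In aDG it stood at 282.2 ± 35.4 CPM with betamethasone and 271.1 ± 41.5 CPM with saline (SD, n = 5 and n = 6). In pDG it stood at 239.1 ± 15.5 CPM with betamethasone and 265.2 ± 26.3 CPM with saline (SD, n = 5 and n = 6). In BLA it stood at 179.8 ± 13.8 CPM with betamethasone and 190.95 ± 20.1 CPM with saline (SD, n = 4 and n = 6). ACC had the lowest mean of the 4 regions under either treatment. Its betamethasone libraries (up to 111.3 CPM) lay below every BLA betamethasone library (164.4 CPM or more), whereas its saline libraries (up to 191.6 CPM) overlapped with those of BLA (170.7 CPM or more). The log2 changes were 0.06, -0.13 and -0.02 in aDG, pDG and BLA. The change in ACC minus that in aDG was -0.74 ± 0.14 (SE; edgeR adjusted p = 0.0441). That call was lost in 9 of the 12 fits with 1 ACC library left out (edgeR adjusted p = 0.0515 to 0.155), with RLE factors (0.0530), and without saline replicate 5 of aDG and of BLA (-0.69, 0.158). The change in ACC minus the mean of the other regions was -0.65 ± 0.11 (SE; edgeR adjusted p = 0.0123). With each ACC library left out, the difference from the mean lay between -0.70 and -0.60 and missed the threshold without betamethasone replicate 3 (edgeR adjusted p = 0.0566) or saline replicate 3 (0.0679).

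The other identifier that differed from the mean of the other regions was ENSMFAG00000001307, a rare transcript. In ACC it stood at 0.789, 1.72 and 4.21 CPM with betamethasone, from 43 to 208 reads, and at 0.0956, 0.212 and 0.452 CPM with saline, from 4 to 21 reads (lowest, median and highest of 6). The groups did not overlap, and betamethasone replicate 3 stood far above the other betamethasone libraries. Its log2 change in ACC was 2.91 ± 0.46 (SE), 7.52-fold, with an edgeR adjusted p of 0.0201. This call was lost without saline replicate 2 (3.14, edgeR adjusted p = 0.0519), with saline replicates 3 and 5 left out (2.68, 0.0609), and with reads outside genes (2.35, 0.0940) or unmapped reads (2.72, 0.120) as a covariate. In the other regions the changes were -0.31 (aDG), 0.20 (pDG) and -0.87 (BLA). In BLA it stood at 1.47 ± 0.576 CPM with betamethasone and 2.82 ± 1.87 CPM with saline (SD, n = 4 and n = 6), against 1.96 ± 1.21 CPM with betamethasone and 0.257 ± 0.155 CPM with saline in ACC (n = 6 each).

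The ACC change of ENSMFAG00000001307 exceeded the mean of the other regions by 3.26 ± 0.62 on the log2 scale (SE; edgeR adjusted p = 0.0408). With an ACC library left out this lay between 2.88 and 3.49. It missed the threshold without betamethasone replicate 3, 4 or 5 or saline replicate 1, 3, 5 or 6, with edgeR adjusted p-values up to 0.257. With libraries matched across regions by title number as a replicate block, the difference was 2.88 and also missed it (edgeR adjusted p = 0.131). That match was made after the data were seen. Reads on the opposite strand of this identifier numbered 34 to 78 in betamethasone libraries and 37 to 51 in saline libraries, more than its own reads in every saline library. With both strands counted together the log2 change in ACC was 1.21 (edgeR adjusted p = 0.0426).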

How the data were processed

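The authors deposited a table of raw counts for each library, with reads per gene unstranded and by strand. Per the submitters' processing notes the aligner was STAR; version and annotation were not given in any source used here. Column 4 of each table was used, rows naming no gene were dropped (for ACC 11.8% to 16.9% of all reads were unmapped, and 26.7% to 36.3% of mapped reads lay outside genes), and 139 identifiers on 298 of 17452 rows were summed. Multimapping reads were listed as 0, so the treatment of near-identical gene copies is unknown.

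The test was that of edgeR 4.0.16 under R 4.3.3 (TMM, filterByExpr with minimum count 10 and minimum total 15, robust quasi-likelihood F test, Benjamini-Hochberg adjustment, threshold 0.05). The 12 ACC libraries were fitted alone, and differences between regions as interactions over all 44. The biological coefficient of variation in ACC was 19.0%. DESeq2 1.42.0 and limma 3.58.1 were alternatives. The SE was derived from each log2 change and its F statistic (change over root F), and library measures were compared by exact permutation tests. The fits were tested on simulated data.

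Named identifiers are, in each direction, the call with the lowest p and the call with the largest change, plus the calls of the contrasts between regions. Comparisons, members and lists were chosen with earlier results of these data known, and the distance between libraries was added after seeing them. In none of the 30 within-group pairs did the counts agree within sampling noise (chi-square of 20.03 to 142.7 per degree of freedom), so no library was found to be a repeat of another; this does not show that libraries came from different animals, and n counts libraries.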

Additional observations from a re-analysis of the deposited data

Results flagged for a closer look

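In the 6 ACC betamethasone libraries, replicate 3 held 4.21 CPM of ENSMFAG00000001307 and stood far from the others by the gap to its neighbour relative to the whole range (ratio 0.626). By the same measure, ACC betamethasone replicate 2 stood apart with 13.1% unmapped reads (ratio 0.788), the highest of its group. Of 56 groups of samples examined in this way 2 held such a sample, and chance gives about 1 in 20.

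Between regions, the effect of betamethasone on ENSMFAG00000045090 in ACC minus that in aDG was -0.74 on the log2 scale (edgeR interaction adjusted p = 0.0441). That call was lost in 9 of the 12 fits with 1 ACC library left out, with RLE factors (edgeR adjusted p = 0.0530), and without saline replicate 5 of aDG and of BLA (0.158). Minus the mean of the other regions it was -0.65 (edgeR adjusted p = 0.0123), with all 6 betamethasone libraries of ACC below all 6 saline libraries. The effect on ENSMFAG00000001307 in ACC minus the mean of the other regions was 3.26 (edgeR adjusted p = 0.0408), with all 6 betamethasone libraries of ACC above all 6 saline libraries. That difference missed the threshold with regions matched by title number (2.88, edgeR adjusted p = 0.131) and without some single ACC libraries (up to 0.257). The separation within ACC used the same values as the fit, so it adds nothing on differences between regions. Over all tested identifiers 117 (0.805%) were separated as higher and 111 (0.763%) as lower.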

How the results depend on the processing

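The 48 ACC calls (30 higher, 18 lower) became 557 (359 and 198) with DESeq2, 14 (4 and 10) with reads outside genes as a covariate, 21 (7 and 14) with unmapped reads as a covariate and 27 (14 and 13) in a fit of all 44 libraries. With saline replicates 3 and 5 left out the higher calls numbered 17. With 1 library left out the count ran from 3 to 206 (2 to 143 higher, 1 to 63 lower). Upper-quartile factors gave 39 calls with 51.3% higher, against 62.5% with TMM. The other settings of filter, normalization, strand and repeated identifiers gave 46 to 61 calls, and limma voom 58. Where the count moved, the cause was not tested.

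Against aDG, the 1 call became 3 with DESeq2, 0 with RLE factors and 0 without saline replicate 5 of aDG and of BLA. Against BLA, DESeq2 gave 3. Against the mean of the other regions, the 2 calls became 8 with DESeq2 and 5 without those libraries. Without 1 ACC library these counts ran from 0 to 1 (aDG), 0 to 0 (pDG), 0 to 0 (BLA) and 0 to 3 (mean).

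No paired analysis was possible within ACC because the labels number no replicates. Title numbers that run in parallel between regions gave 10 sets of 4 libraries, matched after the data were seen. As a replicate block they left 1 call against the mean (ENSMFAG00000045090) and 1 against aDG, and ENSMFAG00000001307 stood at 2.88 against the mean (edgeR adjusted p = 0.131). The labels do not tie libraries to animals, so libraries of different regions were treated as independent. At low levels (ENSMFAG00000001307, 4 to 21 saline reads) counting limits precision.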
